A study of Mus musculus with 35 samples.

Results

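Open chromatin of haematopoietic stem cells (HSCs) was set against that of haematopoietic progenitor cells (HPCs) in the mouse fetus at E16.5, late in gestation. The fetal HSC group and the fetal HPC group hold 3 libraries each, 6 of the 35 libraries of the series. In each cell type's peak list, touching or overlapping peaks on chromosomes 1 to 19 and X were joined into regions, and a region was called shared when at least 1 bp of it overlapped a region of the other fetal list and list-specific otherwise. This gave 21790 HSC-specific regions among 90968 regions of the fetal HSC list and 20463 HPC-specific regions among 90464 regions of the fetal HPC list.

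The series mapped open chromatin in HSCs and HPCs from fetus to adult with ATAC-seq, which reads where a transposase, Tn5, can cut into DNA that is not packed away. All mice were on the B6 background, and the labels give the fetal groups no genotype of their own, although the descriptions of 1 fetal HSC and all 3 fetal HPC libraries contain the letters wt. The other groups, used here only to see where fetal regions recurred, were HSCs and HPCs of Ifnar knockout mice (which lack the receptor for type I interferon) at postnatal day 7 (P7), wild-type HSCs and HPCs at P7, an earlier set of P7 HPCs, HSCs and HPCs at P14, HPCs at P21, and HSCs and HPCs aged 8 weeks. The labels of the P7 set with the knockouts name the HPCs as CD48-positive LSK cells, and for the fetal groups they give no gate, tissue or number of animals.

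The libraries of a group were pooled by the authors into 1 peak list, so each value below holds for 1 list per group, has no spread between replicates and was not put to a test. The sources used here give no read depths. Absence from a list means that no peak was called there, not that the chromatin was closed. Intervals are exact Clopper-Pearson 95% intervals over regions, which cover error of counting alone, as fragments carried no molecular identifiers and need not be independent. Strength is the -log10 p that the authors' peak caller gave to a region's strongest peak, and strong regions are the upper 50% of a list, with a -log10 p of at least 44.8 in fetal HSCs and 39.2 in fetal HPCs. Values of -log10 p depend on the list, with medians of 83.0 in adult HSCs and 57.3 in adult HPCs, so those of different lists stand side by side without a test.

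All 3 fetal HSC libraries name the fetal HSC list in their descriptions. Of the 3 fetal HPC libraries, 2 name the fetal HPC list and 1 names the P21 HPC list, while 1 P7 HPC library names the fetal HPC list. The lists were assigned by the names they carry, and no value without the doubtful library can be had from a pooled list. The same mismatch touches 12 of the 24 libraries of the set with the fetal groups, among them all of P14 and P21 and 3 of the 5 of adult HSCs. It touches none of the 11 libraries of the P7 set with the knockouts.

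HSCs are rare cells that divide seldom in the adult, renew themselves and give rise to every blood lineage, whereas HPCs divide more and have begun to lean towards single lineages. In the fetus both expand, mainly in the liver. Accessible regions away from gene starts are often enhancers, which differ more between related cell types than promoters do.

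The gene starts printed next carry a strong region in 1 fetal cell type alone that was also called in the same cell type alone in adults. They are the 3 strongest such starts in each direction, and are shown because here the cell-type difference falls on a start whose sequence is known. Each run covers 250 bases before to 50 bases after the start, from RefSeq on GRCm38.p6, 5′ to 3′ on the gene's strand. Capitals mark matches on either strand to any of 7 motifs. They are AGATAA for factors of the GATA family, TGTGGT for RUNX factors, GAGGAAGT for the myeloid factor PU.1, CCGGAAGT for other ETS factors, TGANTCA for AP-1, TTGCNNAA for C/EBP factors and CAGNTG for E-box factors. The HSC-only starts are those of Apela, a peptide hormone gene (chr8:65037287-65037586, minus strand), Rab34, a small GTPase gene (chr11:78188177-78188476, plus strand), and Rxfp3, a relaxin-family peptide receptor gene (chr15:11037919-11038218, minus strand). The HPC-only starts are those of B3galt5, a galactosyltransferase gene (chr16:96273263-96273562, plus strand), P2ry14, a receptor for UDP-sugars (chr3:59153443-59153742, minus strand), and Siglech, a sialic acid-binding lectin gene known as a marker of plasmacytoid dendritic cells (chr7:55767934-55768233, plus strand).
Apela: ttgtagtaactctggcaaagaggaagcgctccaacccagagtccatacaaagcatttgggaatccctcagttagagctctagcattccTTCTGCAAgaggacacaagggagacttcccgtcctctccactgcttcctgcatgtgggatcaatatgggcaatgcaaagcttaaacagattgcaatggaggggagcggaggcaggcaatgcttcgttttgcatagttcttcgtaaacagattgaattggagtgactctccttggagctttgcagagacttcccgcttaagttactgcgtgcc
Rab34: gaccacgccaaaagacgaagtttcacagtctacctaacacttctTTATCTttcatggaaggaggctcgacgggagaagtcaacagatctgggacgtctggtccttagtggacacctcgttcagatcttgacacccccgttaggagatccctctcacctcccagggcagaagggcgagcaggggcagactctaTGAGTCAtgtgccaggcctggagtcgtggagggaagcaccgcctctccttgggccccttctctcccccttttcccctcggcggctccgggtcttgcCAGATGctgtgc
Rxfp3: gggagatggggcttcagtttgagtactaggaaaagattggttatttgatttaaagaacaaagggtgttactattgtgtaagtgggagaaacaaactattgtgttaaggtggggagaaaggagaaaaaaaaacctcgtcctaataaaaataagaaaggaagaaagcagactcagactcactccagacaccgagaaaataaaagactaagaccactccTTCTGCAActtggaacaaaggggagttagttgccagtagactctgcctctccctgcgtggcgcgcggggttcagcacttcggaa
B3galt5: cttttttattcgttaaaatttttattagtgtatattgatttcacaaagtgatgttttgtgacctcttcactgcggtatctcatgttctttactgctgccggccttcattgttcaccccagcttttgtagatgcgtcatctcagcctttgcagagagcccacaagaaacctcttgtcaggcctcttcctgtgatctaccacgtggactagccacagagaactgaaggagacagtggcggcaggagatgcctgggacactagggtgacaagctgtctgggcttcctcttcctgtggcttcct
P2ry14: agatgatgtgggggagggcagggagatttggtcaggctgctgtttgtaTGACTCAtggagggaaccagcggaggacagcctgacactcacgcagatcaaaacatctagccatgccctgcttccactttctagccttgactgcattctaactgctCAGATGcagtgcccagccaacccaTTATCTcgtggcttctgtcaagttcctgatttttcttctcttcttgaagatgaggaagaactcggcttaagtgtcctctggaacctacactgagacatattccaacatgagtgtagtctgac
Siglech: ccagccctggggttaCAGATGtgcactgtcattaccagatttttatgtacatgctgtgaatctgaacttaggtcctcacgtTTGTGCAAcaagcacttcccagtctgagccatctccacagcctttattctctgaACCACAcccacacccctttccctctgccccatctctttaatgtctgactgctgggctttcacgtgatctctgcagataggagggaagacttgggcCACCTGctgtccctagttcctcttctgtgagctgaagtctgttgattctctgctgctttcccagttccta

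The start of P2ry14 held 1 GATA, 1 AP-1 and 1 E-box match, as did that of Rab34, so the same motifs stand in the windows of an HPC-only and an HSC-only start. The called region covered all 300 bases at P2ry14 but 184 at Rab34, and the Rab34 GATA match lay outside it. At Rxfp3 the region covered 140 bases, and at Apela, B3galt5 and Siglech all 300. Siglech held 1 RUNX, 1 C/EBP and 2 E-box matches, Apela and Rxfp3 held 1 C/EBP match each, and B3galt5 held none. Among all 21019 promoter windows of protein-coding genes, 9.69% held the GATA motif, 14.7% RUNX, 3.15% PU.1, 5.20% ETS, 7.04% AP-1, 10.3% C/EBP and 48.6% E-box. A match is a description of letters and not a binding site.

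The regions over these starts differed in how far they recurred. The Siglech region had a -log10 p of 67.0 in fetal HPCs, was called in the other 6 HPC lists, with 54.0 in knockout HPCs at P7, 111 in wild-type HPCs at P7 and 212 in adult HPCs, and was in no HSC list. The B3galt5 region (111 in fetal HPCs) was likewise in the other 6 HPC lists, reaching 167 in adult HPCs, and in no HSC list. The P2ry14 region (76.0 in fetal HPCs) was in 5 of the other 6 HPC lists and in no HSC list. The HSC starts were less exclusive. The Apela region (53.8 in fetal HSCs, 81.8 in adult HSCs) was in 2 of the other 4 HSC lists and in the P14 HPC list at 11.2. The Rab34 region (52.2 in fetal HSCs, 76.0 in adult HSCs) was in all other HSC lists and in 5 of the other 6 HPC lists, and the Rxfp3 region (51.2 in fetal HSCs, 51.5 in adult HSCs) was in 2 other HSC lists and 3 HPC lists.

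HSC and HPC lists overlapped widely, and the regions that set them apart were mostly weak. Of all regions, 24.0% of the HSC list (interval 23.7 to 24.2) and 22.6% of the HPC list were list-specific. Among strong regions the shares were 3.26% in HSCs (1485 of 45484, interval 3.10 to 3.43) and 4.72% in HPCs (2135 of 45232, interval 4.53 to 4.92). The balance therefore turned with strength: HSCs had 1327 more list-specific regions than HPCs over the whole lists, and 650 fewer among strong regions (a difference of -650).

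The share of list-specific regions dropped steadily with strength in both cell types. Each list was divided into 10 deciles by -log10 p, with decile 10 the strongest. In decile 1 it was 71.3% in HSCs and 65.8% in HPCs, and in decile 5 it was 19.7% in each list. In decile 8 it was 1.52% in HSCs and 3.40% in HPCs. HSCs thus had the higher share in deciles 1 to 4 and HPCs in deciles 6 to 10. In decile 10, 0 of 9097 HSC regions were HSC-specific, with an upper bound of 0.0405%, against 20 of 9047 HPC regions (0.221%). With the HSC list's limit of 44.8 applied to both lists, an alternative chosen after seeing the data, 1485 HSC-specific and 1612 HPC-specific strong regions remained, a difference of -127. The difference among strong regions therefore kept its sign, in favour of HPCs, and went from -650 to -127.

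**Figure D1:**
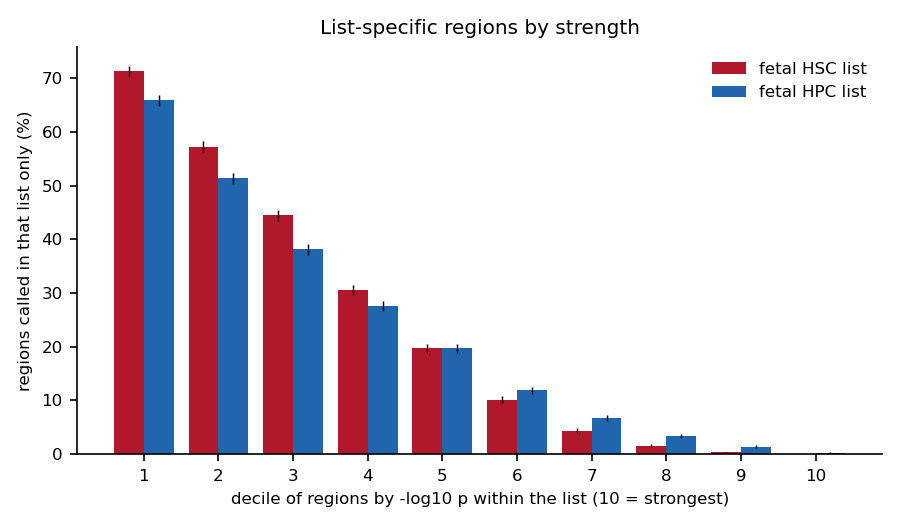
Share of regions called in 1 fetal list only (y axis, %) for each decile of the regions of that list by -log10 p (x axis, 10 the strongest), in the fetal HSC list (red, left) and the fetal HPC list (blue, right), with exact 95% intervals. The share is 71.3% in HSCs and 65.8% in HPCs in decile 1 and 0 in HSCs and 0.221% in HPCs in decile 10.

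Strong list-specific regions of both cell types lay away from genes' ends. A start and an end could not be told apart in the gene table, which has no strand. Within 1 kb of either end of a protein-coding gene lay 5.45% of the HSC-specific (81 regions, interval 4.35 to 6.73) and 4.36% of the HPC-specific strong regions (93 regions, interval 3.53 to 5.31). Of shared strong regions, 28.2% in the HSC list and 27.9% in the HPC list did. The median distance to a gene end was 30.3 kb for HSC-specific and 29.7 kb for HPC-specific strong regions, while shared ones had 10.7 kb in the HSC list and 11.0 kb in the HPC list. Inside a gene body lay 50.6% of the HSC-specific and 51.2% of the HPC-specific strong regions.

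In position, HSC-specific and HPC-specific regions were thus alike, and in shape they differed. HSC-specific strong regions had a median width of 573 bp and consisted of 1 peak in 56.7%, against 498 bp and 76.8% for HPC-specific ones. The shared strong regions of the lists differed in the same way, with a median of 718 bp and 41.4% of 1 peak in the HSC list and 636 bp and 52.2% in the HPC list. The part of the whole lists in this difference was not tested.

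No chromosome carried the list-specific regions by itself. The share of strong regions that was HSC-specific ran from 1.50% on chromosome 19 to 4.24% on chromosome 13, with 3.27% on X. The share that was HPC-specific ran from 3.72% on chromosome 7 to 6.35% on chromosome 1, with 3.76% on X. HPCs had the higher share on each of the chromosomes compared. On chromosome 19, 16 of 1066 strong regions were HSC-specific and 43 of 1133 were HPC-specific.

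The strongest regions called in fetal HSCs alone lay at genes of several kinds. The highest, in the body of Dtnb, a dystrobrevin gene (chr12:3759439-3759996), had a -log10 p of 225. It was followed by regions 12065 bp from Dok4, an adaptor of receptor tyrosine kinases, at 197, near Nmur2, a neuromedin U receptor gene, at 196, and in Stim1, the calcium sensor of the endoplasmic reticulum, at 195. The Dtnb region was called in all 10 postnatal lists, at 407 in adult HSCs and 297 in adult HPCs, so it was missing from the fetal HPC list alone.

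Others of the 15 strongest stayed with HSCs after birth. A region in Scfd1, a gene of vesicle traffic (chr12:51423150-51423649), had 136 in fetal HSCs and was called in all 4 other HSC lists, at 48.3 in knockout P7, 39.3 in wild-type P7, 119 in P14 and 130.4 in adult HSCs. It was in no HPC list. A region in Cadm2, a cell adhesion gene, had 150.3 in fetal HSCs, 14.9 in P14 HSCs and 211 in adult HSCs and was in no HPC list either. At Olfr459, an olfactory receptor gene, 192 in fetal HSCs stood beside 814 in adult HSCs, and among HPC lists the region was called in P14 alone, at 10.5.

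In Stim1, adult HSCs had 188 and adult HPCs 14.2. All 15 regions were called in adult and in P14 HSCs, whereas 8 of 15 were called in adult HPCs and 12 of 15 in P14 HPCs.

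The strongest region called in fetal HPCs alone needs a caution. It is 232 bp wide (chr1:24613000-24613231), lies 25078 bp from Col19a1, a collagen gene, and had a -log10 p of 3906, the highest of the list. That stretch of chromosome 1 is known as a nuclear copy of mitochondrial DNA, so the origin of its reads is uncertain. It was also called in adult HSCs at 4803 and in adult HPCs at 4195.

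The next HPC-specific regions lay in Panx1, which encodes a membrane channel (chr9:15017913-15018655), at 404, near Klf12, a gene for a transcriptional repressor, at 323, and at the end of Cd226, an adhesion receptor gene of T and NK cells, at 316. The Panx1 region was called in all 6 other HPC lists. In P14 it had 33.3 in HSCs and 807 in HPCs, and in adults 212 in HSCs and 1734 in HPCs. A region in Itga2, the gene for integrin alpha 2 (chr13:114915720-114916539), followed the same course, with 284 in fetal HPCs and, in adults, 40.0 in HSCs against 326 in HPCs.

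Ccdc93, a gene of endosomal sorting, and Tmem144 held regions that every HPC list had, 7 in all, and that no HSC list had. Ccdc93 had 262 in fetal and 1100 in adult HPCs, and Tmem144 221 in fetal and 347 in adult HPCs. Not all recurred: the region in Dpp10 (266 in fetal HPCs) was called after birth in wild-type P7 HPCs at 24.0 and in the other P7 HPC list at 11.5, and nowhere else. The region in Scn1a, a sodium channel gene (307 in fetal HPCs), was called in all 10 postnatal lists, at 142 in HSCs and 454 in HPCs at P14, and at percentile 98.9 of the adult HSC and 98.5 of the adult HPC list. Of the 15 regions, 4 were called in P14 HSCs and 13 in P14 HPCs, and in adults 10 in HSCs and 13 in HPCs.

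**Figure D2:**
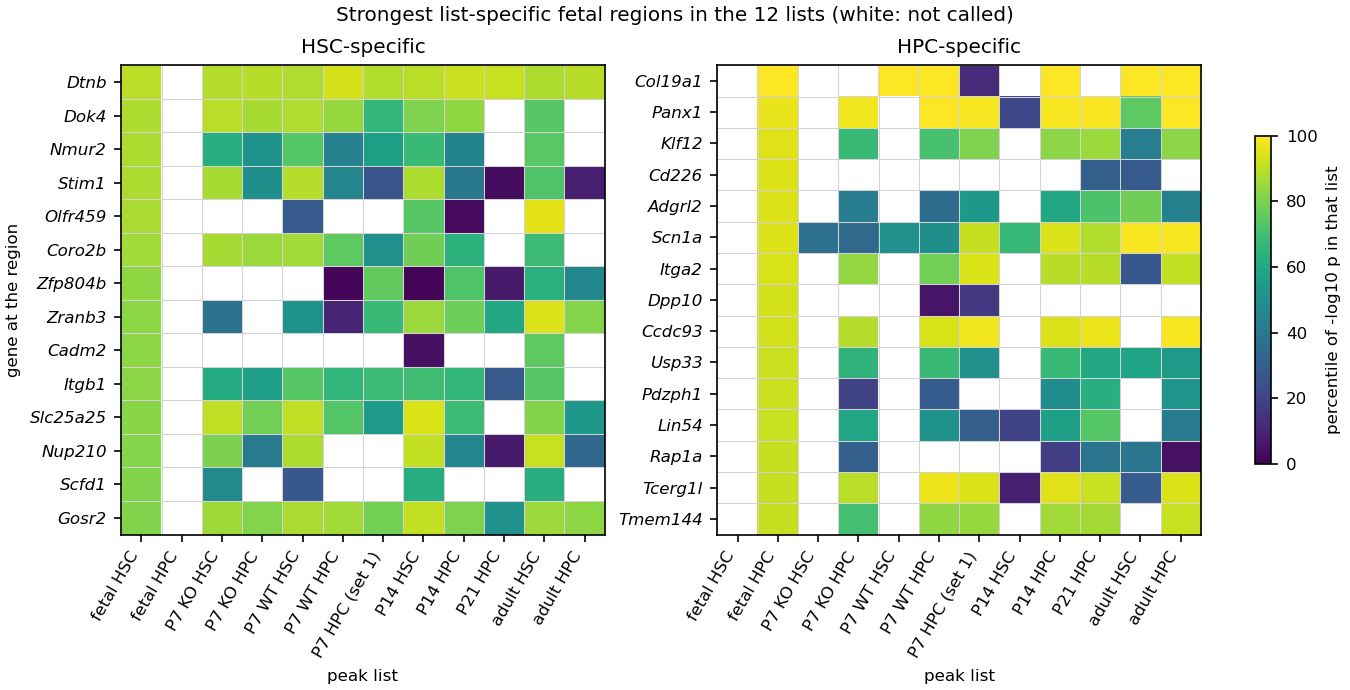
Of the strongest list-specific regions of the fetal lists, 14 HSC-specific (left; 1 of the 15 described is not reported by name and not drawn) and 15 HPC-specific ones (right), named by the gene at each, in the 12 lists (columns). Colour gives the percentile of the region's -log10 p within each list, and white means not called; the column of the other fetal list is white by the choice of regions. All 14 HSC-specific regions drawn are called in adult HSCs and 7 in adult HPCs, and 10 HPC-specific regions are called in adult HSCs and 13 in adult HPCs.

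After birth, list-specific regions were called more often in their own cell type than in the other in each pair of lists. The pairs were P7 wild types, P7 knockouts, P14 and adults. Of strong HSC-specific regions, 82.9% were called in adult HSCs and 54.1% in adult HPCs. Of strong HPC-specific regions, 51.1% were called in adult HSCs and 73.8% in adult HPCs. At P7 in wild types, 8.29% of the HPC-specific regions were called in HSCs and 60.2% in HPCs, whereas 43.5% of the HSC-specific ones were called in HSCs and 37.4% in HPCs. In knockouts at P7 the HPC-specific regions gave 6.14% in HSCs and 56.0% in HPCs, and the HSC-specific ones 38.9% in HSCs and 34.1% in HPCs. At P14 the HPC-specific regions gave 27.2% in HSCs and 73.3% in HPCs, and the HSC-specific ones 69.2% in HSCs and 62.7% in HPCs. Within these pairs the gap was the wider one for HPC-specific regions at P7 and P14 and for HSC-specific regions in adults. The earlier set of P7 HPCs, which has no HSC list beside it, held 51.9% of the HSC-specific and 66.9% of the HPC-specific regions. For HSC-specific regions that is more than either P7 HSC list held.

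**Figure D3:**
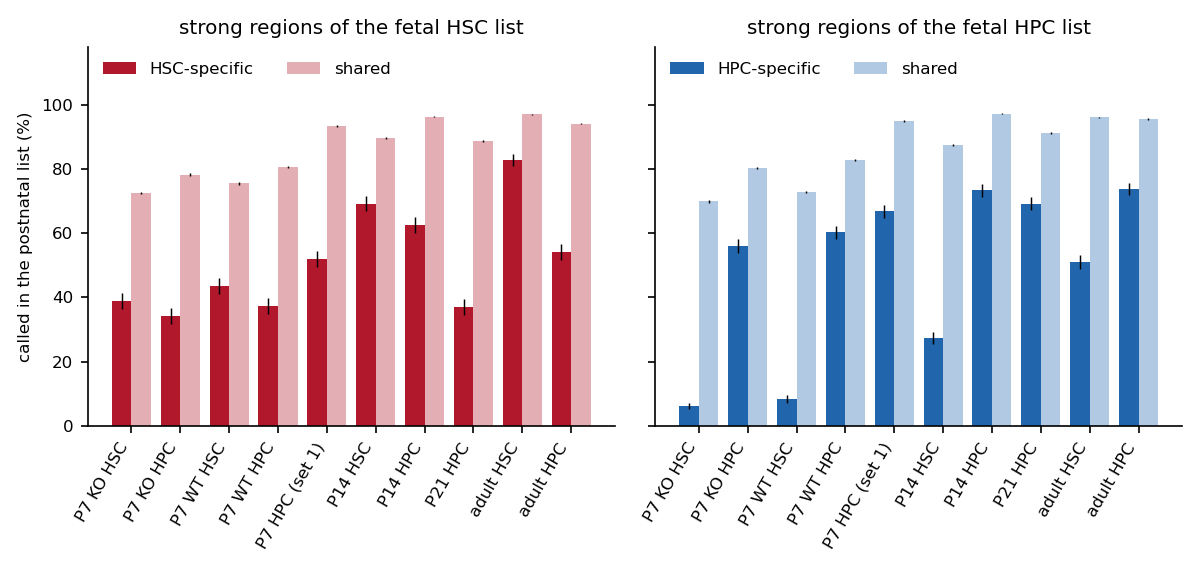
Share of fetal strong regions (y axis, %) that were called in each of the 10 postnatal lists (x axis), for the fetal HSC list (left, red) and the fetal HPC list (right, blue), list-specific (dark) and shared (pale), with exact 95% intervals. HSC-specific regions reach 82.9% in adult HSCs, and HPC-specific regions reach 73.8% in adult HPCs and stay at 6.14% and 8.29% in the P7 HSC lists.

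The postnatal lists differ in length, so regions called in exactly 1 of a pair of postnatal lists were set beside shared fetal regions, which meet the same lists. In adults, 495 of the HSC-specific regions were called in HSCs alone and 67 in HPCs alone, so the HSC list held 88.1% (interval 85.1 to 90.6), against 75.1% for shared regions of the fetal HSC list. Of the HPC-specific regions, 177 were called in adult HSCs alone and 660 in adult HPCs alone, so the HSC list held 21.1% (interval 18.4 to 24.1), against 54.2% for shared regions of the fetal HPC list. Both kinds therefore leaned towards their own cell type further than shared regions did.

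The younger ages gave the same order. For HSC-specific regions, the share in the HSC list was 61.9% in P7 knockouts, 64.9% in P7 wild types and 61.8% at P14, while shared regions had 31.5%, 31.5% and 16.1%. For HPC-specific regions it was 0.740% in P7 knockouts (8 regions in HSCs alone, 1073 in HPCs alone), 0.623% in P7 wild types (7 and 1116) and 4.44% at P14 (48 and 1033), while shared regions of the fetal HPC list had 21.1%, 20.1% and 8.50%. At P14 the HPC-specific share thus lay nearer to that of shared regions than at P7. The P14 intervals, 3.29 to 5.84 for HPC-specific and 7.74 to 9.31 for shared regions, did not overlap. The P7 HSC lists were the shorter of their pairs, with 42459 regions in HSCs and 58567 in HPCs of knockouts and 45615 in HSCs and 66044 in HPCs of wild types, as was the P14 HSC list, with 73287 in HSCs and 91043 in HPCs.

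**Figure D4:**
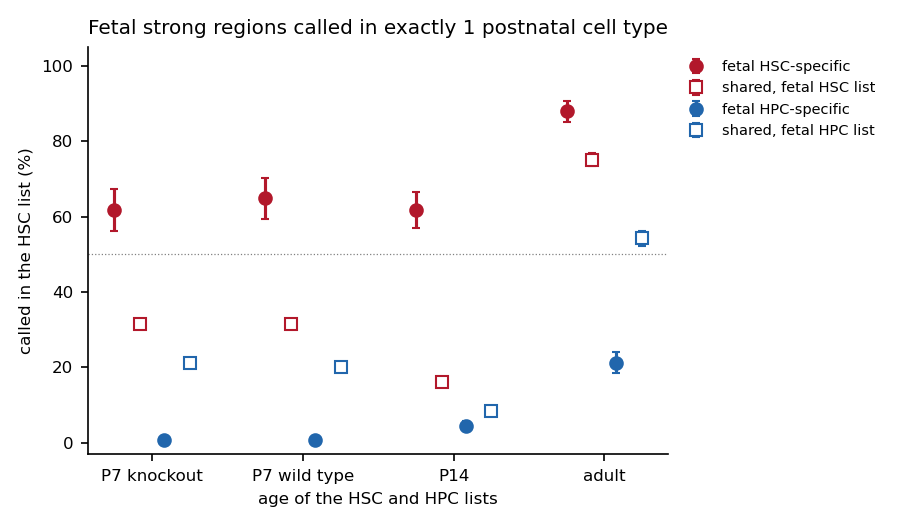
Of fetal strong regions called in exactly 1 of the HSC and HPC lists of an age, the share called in the HSC list (y axis, %), for P7 knockouts, P7 wild types, P14 and adults (x axis), with exact 95% intervals. Filled points are list-specific and open squares shared regions, in red for the fetal HSC list and blue for the fetal HPC list; HSC-specific points lie between 61.8% and 88.1% and HPC-specific points between 0.623% and 21.1%.

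Few regions kept strictly to 1 cell type throughout. Of the strong HSC-specific regions, 23 (1.55%) were called in all 4 other HSC lists and in none of the 6 other HPC lists, against 0.0795% of shared regions. Of the strong HPC-specific regions, 302 (14.1%) were called in all 6 other HPC lists and in none of the 4 other HSC lists, against 0.374% of shared regions. Over the P7 lists with the knockouts alone, whose descriptions all name their own list, the numbers were 91 HSC-specific (6.13%) and 850 HPC-specific regions (39.8%), against 1.36% of shared regions of the HSC list and 6.73% of those of the HPC list. Regions called in all 10 postnatal lists made up 11.6% of the HSC-specific and 2.86% of the HPC-specific regions, and those called in none 7.14% and 9.70%. Of shared regions, 60.4% in the HSC list and 59.7% in the HPC list were called in all 10, and 0.680% and 0.513% in none.

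The strict HSC regions lay, after Scfd1, in Nfia (91.0 in fetal HSCs), in Rgl1, an exchange factor of Ral GTPases (85.7), in Pinx1, a telomerase inhibitor gene (73.6), and near Eva1a (72.9). The Rgl1 region had 57.6 in knockout P7, 109.8 in wild-type P7, 230.1 in P14 and 101 in adult HSCs. The strict HPC regions were led, with Ccdc93 and Tmem144, by regions nearest to Eya4, a transcriptional coactivator gene (238 in fetal HPCs), and Picalm, a clathrin adaptor gene (215), and in Tgm2, transglutaminase 2 (182). The Tgm2 region had 377 in knockout P7, 563 in wild-type P7, 391 in P14 and 443 in adult HPCs.

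Genes with several list-specific regions were more often on the HPC side. Within gene bodies and 10 kb on each side, 984 of 21627 protein-coding genes (4.55%) had at least 1 strong HSC-specific region and 1299 (6.01%) at least 1 strong HPC-specific region, and 145 had both. A difference of at least 3 regions was found in favour of HSCs at 7 genes and in favour of HPCs at 24. Runs of at least 3 consecutive strong regions that were all list-specific numbered 2 in HSCs and 10 in HPCs.

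Coro2b, a coronin gene of actin binding, led the HSC side with 5 strong HSC-specific regions and 0 HPC-specific ones, over 13 regions in the HSC list and 8 in the HPC list. None of the 8 was strong, against 7 of the 13. A run of 5 regions spanned 64.5 kb from the neighbouring Anp32a into Coro2b (chr9:62374756-62439209). The strongest region (chr9:62420965-62421635) had 178 in fetal HSCs. In knockouts at P7 it had 151 in HSCs and 246 in HPCs, in wild types at P7 213 in HSCs and 187 in HPCs, and in P14 228 in HSCs and 96.6 in HPCs. In adults it was called in HSCs, at 161, and not in HPCs.

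The other genes on this side were Tbc1d4, a regulator of glucose transporter traffic, with 4 and 0 regions, and, with 3 and 0 each, Elmo1 (cell migration), Ryr2 (a calcium release channel), Grm5 (a glutamate receptor), Cntnap2 (neuronal adhesion) and Klhl29. Lsamp had 3 and 1. Several are long genes that hold many regions: Cntnap2 spans 2241 kb with 49 regions in HSCs and 42 in HPCs.

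On the HPC side, Zfhx3, a homeodomain transcription factor gene, had 0 HSC-specific and 5 HPC-specific strong regions, and Ppargc1a, a coactivator of mitochondrial genes, 1 and 5. Trio, Trappc9, Ppp3ca (the catalytic subunit of calcineurin), Pla2g4a (cytosolic phospholipase A2) and Eml6 had 0 and 4 each. The 4 regions of Pla2g4a lay in a gene with 10 regions in HSCs and 15 in HPCs.

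Nfia, a transcription factor gene of the nuclear factor I family, was divided. It held 1 HSC-specific and 5 HPC-specific strong regions in its 541 kb. The HSC-specific one (chr4:97900269-97901099) had 91.0 in fetal HSCs and was called in all 4 other HSC lists, at 17.3 to 68.5, and in no HPC list. Of the 5 HPC-specific ones, the region chr4:98020655-98021260 had 60.7 in fetal HPCs and was called in all 6 other HPC lists, at 89.6 to 222, and in no HSC list. One gene thus held regions that went with HSCs and regions that went with HPCs at all ages measured.

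By strong list-specific regions, stem cell genes sided clearly with neither cell type. Around 32 HSC regulators and markers, strong regions numbered 138 in HSCs and 128 in HPCs, beside 44582 and 43866 around all protein-coding genes. Of these, 5 were HSC-specific and 6 HPC-specific. That is 3.62% of the HSC and 4.69% of the HPC strong regions there, against 2.36% and 3.41% around all protein-coding genes. The HSC-specific ones lay at Gfi1, Lyl1, Fli1, Hmga2 (each a regulator of transcription or chromatin) and Vwf, which encodes von Willebrand factor. The HPC-specific ones lay at Mecom, Runx1, Erg and Prdm16, transcription factors needed in HSCs, at Tek, the angiopoietin receptor, and again at Hmga2.

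The HPC-specific regions of this list did not behave alike after birth. The Runx1 region (chr16:92715527-92716348) had 44.2 in fetal HPCs, was called in all 6 other HPC lists at 39.7 to 152 and was in no HSC list. The Erg region had 63.3 in fetal HPCs, was called in the other 6 HPC lists and among HSC lists in P14 alone, at 24.8. The Mecom region had 57.2 in fetal HPCs and, in adults, 50.3 in HSCs against 322 in HPCs. The Prdm16 region went the other way: it had 39.7 in fetal HPCs, was called in all 4 other HSC lists and 4 of the other 6 HPC lists, and in adults had 46.5 in HSCs and was not called in HPCs. On the HSC side, the Gfi1 region had 53.7 in fetal HSCs and was called in all 4 other HSC lists and 4 of the other 6 HPC lists. In adults it had 81.4 in HSCs and was not called in HPCs. The Fli1 region was called in both adult lists, at 112 in HSCs and 114 in HPCs, as was that of Vwf, at 99.1 in HSCs and 70.8 in HPCs.

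Counts of all regions, weak ones included, differed little at other stem cell genes. Mecom had 35 regions in each list, Hlf 8 in HSCs and 9 in HPCs, Hoxa9 6 and 7, Procr 5 and 4, and Meis1, a homeobox gene of HSCs, 15 and 23. The strong ones among them numbered 13 in HSCs and 11 in HPCs at Mecom, 4 and 2 at Hlf and 4 and 1 at Hoxa9. They were 3 and 1 at Procr, and 8 and 10 at Meis1. At the gate markers Slamf1 and Cd48, counts of all regions ran with the labels, and counts of strong regions did not. Slamf1, which encodes the CD150 antigen of HSC gates, had 5 regions in HSCs and 2 in HPCs, of which 1 and 2 were strong. Cd48, an antigen of progenitors, had 2 in HSCs and 5 in HPCs, with 1 strong region in each list. None of the 3 HSC-specific regions at Slamf1 and of the 3 HPC-specific ones at Cd48 was strong. All 12 surface markers of stem and progenitor gates together had 46 regions in HSCs and 45 in HPCs, so the set as a whole showed no such order. Among their strong regions, 0 were HSC-specific (0%) and 2 HPC-specific (8.70%), at Cd34 and Fcgr3, beside 2.36% and 3.41% around all genes.

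Cell cycle genes had more regions in HPCs. Around 25 of them, 0 strong regions were HSC-specific (0%) and 4 HPC-specific (5.71%), beside 2.36% and 3.41% around all genes. Over all strengths 19 were HSC-specific (15.8% of the HSC regions) and 39 HPC-specific (27.9% of the HPC regions), beside 20.3% and 18.7% around all genes. Cdk6, the cyclin D-dependent kinase that drives G1, had 17 regions in HSCs and 26 in HPCs, with 6 HSC-specific and 14 HPC-specific. Its strong HPC-specific region chr5:3497463-3498036 had 55.4 in fetal HPCs and, in adults, 24.2 in HSCs against 107 in HPCs. The region in Mcm5, a subunit of the replicative helicase, had 83.5 in fetal HPCs and, in adults, 64.3 in HSCs against 547 in HPCs. Mki67, the proliferation marker, had 1 region in HSCs and 4 in HPCs. Among the inhibitors of cyclin-dependent kinases, Cdkn1b had 7 regions in HSCs and 5 in HPCs, Cdkn1c 5 and 3, Cdkn1a 3 and 3, and Cdkn2c 4 and 4, of which 2 and 3 were strong at Cdkn1b and 3 and 4 at Cdkn2c.

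Lineage lists had more HPC-specific than HSC-specific strong regions, in small numbers. The erythroid and megakaryocytic list had 2 HSC-specific (Fli1, Vwf) and 5 HPC-specific strong regions (Gata1, Zfpm1, Ank1, Alas2, Cnrip1). Gata1, the erythroid master regulator, had 0 regions in HSCs and 2 in HPCs, and its strong one (chrX:7971093-7971763) had 50.5 in fetal HPCs. The myeloid list had 1 (Gfi1) and 3 (Csf2rb, Fcgr3, S100a8), and the lymphoid list 2 (Ebf1, Pax5) and 5, of which Igll1 and Vpreb1 share 1 region. As shares of the strong regions, these were 3.13% HSC-specific and 7.58% HPC-specific in the erythroid and megakaryocytic list, 2.70% and 8.57% in the myeloid and 2.44% and 6.17% in the lymphoid list, beside 2.36% and 3.41% around all genes. With weak regions counted, the order turned in the lymphoid list, with 50 HSC-specific and 34 HPC-specific regions, and in the myeloid list, with 17 and 15, and held in the erythroid and megakaryocytic list, with 26 and 36. The Gata1 region was nevertheless called in adult HSCs at 72.7 and not in adult HPCs.

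The lymphoid regions of HPCs recurred in HPCs at all ages. In Dntt, the terminal transferase gene of early lymphocytes (chr19:41039028-41039547), the region had 53.8 in fetal HPCs, was called in all 6 other HPC lists at 77.1 to 300.3 and was in no HSC list. A region in Ebf1, a transcription factor gene of early B cells (chr11:44881116-44881684), had 53.8 in fetal HPCs, 88.1 to 272 in the other HPC lists and was in no HSC list. The region at Igll1 and Vpreb1, the surrogate light chain genes of B-cell precursors (chr16:16864842-16865694), had 108 in fetal HPCs, 103 to 474 in the other HPC lists and 77.8 in adult HSCs, the one HSC list that held it. Ikzf1, the Ikaros gene, differed from these: its region had 76.2 in fetal HPCs and was in no postnatal list.

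Receptor and immune genes gave counts of the same order. The cytokine and innate receptor list had 1 strong HSC-specific region, at Ifngr1, and 4 HPC-specific ones, at Csf2rb, Il1r1, Il18r1 and Tnfrsf1b, which is 1.75% of its HSC and 6.35% of its HPC strong regions. The Il1r1 region (55.0 in fetal HPCs) had 263 in adult HPCs and was not called in adult HSCs. Interferon-stimulated genes had 1 strong HSC-specific region, at Ifi44 (2.56%), and 0 HPC-specific ones (0%). Antigen presentation had 0 and 2 (0% and 5.56%; Tap2 and Psmb8, which share 1 region). Immediate early genes had 1 (Junb) and 1 (Zfp36), 1.67% each, and the fetal programme 1 and 1, both at Hmga2 (2.94% and 3.13%). The region counted for Junb lay outside that gene, 7.32 kb from its nearer end and over the start of Prdx2. That of Zfp36 lay 3.82 kb from its gene's nearer end. Around all genes the shares were 2.36% and 3.41%.

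Markers of other cell types were counted as well. Strong regions that were HSC-specific and HPC-specific numbered 1 and 1 at hepatocyte genes, 0 and 3 at endothelial, 2 and 1 at stromal, 1 and 2 at T cell, 2 and 3 at B cell and 0 and 0 at macrophage genes. As shares of the strong regions there, these were 4.55% and 5% at hepatocyte and 0% and 7.5% at endothelial genes. They were 6.67% and 3.85% at stromal, 3.23% and 7.69% at T cell and 5.56% and 8.82% at B cell genes. Macrophage genes had 0% and 0%, and all protein-coding genes 2.36% and 3.41%. Alb had 2 regions in HSCs and 3 in HPCs, Cdh5 5 and 7, and Cd3e 0 in both. The part of such cells in the results was not tested, and in bulk samples fewer cells of a type and less accessibility per cell cannot be told apart. Of 300 genes in 1 or more of the 17 lists, 14 (4.67%) had a strong HSC-specific and 37 (12.3%) a strong HPC-specific region, beside 4.55% and 6.01% of all genes. The HPC counts rest on the lower limit of 39.2. Among the 37, Cd37, Cnrip1, E2f3, Fcgr3, Hnf4a, Pecam1, Prdm16, Runx1, Tek, Zap70 and Zfpm1 had none above the HSC limit of 44.8. Tap2 and Psmb8 shared 1 region, as did Igll1 and Vpreb1. The median net difference per gene was 0 in every list, as over all genes, and 8 of the 17 lists changed the sign of their net share when weak regions were counted too.

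The immunoglobulin heavy chain locus, from which antibody genes are assembled in B cells, held the longest run of consecutive HPC-specific strong regions, 5 over 169.5 kb (chr12:115833747-116003262). The locus spans 2.75 Mb (chr12:113256204-116009954) with 54 regions in HSCs and 109 in HPCs, of which 0 strong ones were HSC-specific and 10 HPC-specific. Its V segments, chosen for a closer look after these values were seen, carried a region at 31 of 183 (16.9%, interval 11.8 to 23.2) in HSCs and 63 of 183 (34.4%, interval 27.6 to 41.8) in HPCs. Both lists held 30 of these, HSCs alone 1 and HPCs alone 33.

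The excess in HPCs lay mostly in the distal part of the locus. Of the 91 segments distal from the constant genes, 9 were called in HSCs and 33 in HPCs, and of the 92 proximal ones 22 in HSCs and 30 in HPCs. Distal Ighv1-58 had a -log10 p of 192 in HSCs and 720.2 in HPCs, and Ighv1-54 18.8 in HSCs and 224 in HPCs. Proximal Ighv11-1 was of like strength, with 279 in HSCs and 243 in HPCs. Some V segments of a family are near-identical in sequence, so the assignment of reads among those is uncertain.

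HSCs called few V segments in young postnatal mice. The counts were 3 in HSCs and 51 in HPCs of P7 knockouts, 2 and 60 in P7 wild types, 5 and 72 at P14, and 58 and 65 in adults. Fetal HSCs thus stood between the young postnatal and the adult HSC lists, while HPC counts stayed between 51 and 72.

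**Figure D5:**
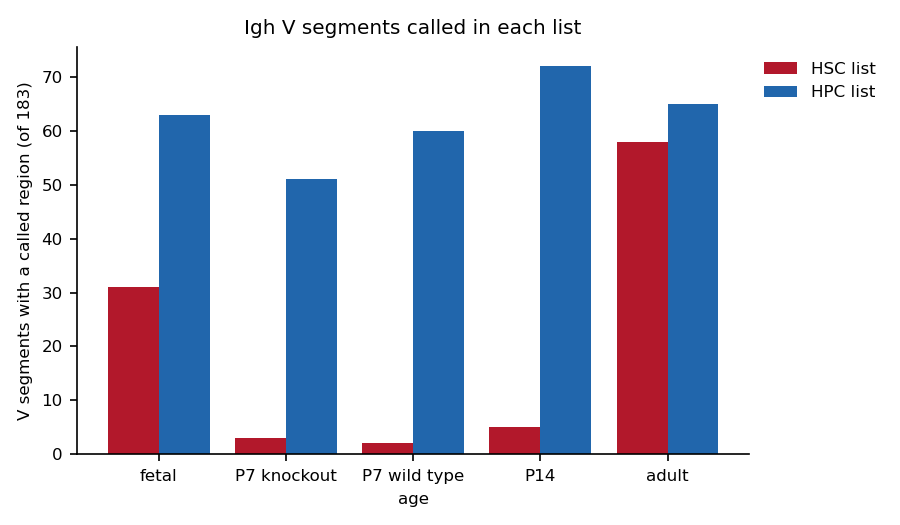
Number of the 183 Igh V segments with a called region (y axis) in the HSC (red, left) and HPC (blue, right) lists of the fetus, P7 knockouts, P7 wild types, P14 and adults (x axis). Fetal lists hold 31 in HSCs and 63 in HPCs, and adult lists 58 in HSCs and 65 in HPCs.

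Promoter windows, with regions of all strengths counted, were called in HSCs alone more often than in HPCs alone, the order found for all regions. Of the 21019 promoter windows, 550 (2.62%) were called in HSCs alone and 321 (1.53%) in HPCs alone, while 59.9% were called in both and 36.0% in neither. Windows called in 1 list had a median G+C content of 58% in HSCs and 54.7% in HPCs, between the 62% of windows called in both and the 47.3% of those in neither. In adults, of windows called in exactly 1 list, the HSC list held 86.2% of the fetal HSC-only windows (193 in HSCs, 31 in HPCs), 60.9% of the fetal HPC-only windows (70 in HSCs, 45 in HPCs) and 85.1% of those called in both. Fetal HPC-only promoter windows, weak regions included, were thus more often called in adult HSCs alone than in adult HPCs alone (interval 51.3% to 69.8%). This was close to windows called in neither fetal list, at 61.9% (140 in HSCs, 86 in HPCs, interval 55.3 to 68.3). At younger ages the fetal HPC-only windows went the other way, with 1 called in HSCs alone and 78 in HPCs alone in P7 knockouts. They had 3 and 77 in P7 wild types, and 27 and 100 at P14. Windows called in neither fetal list had 5 and 61, 16 and 90, and 111 and 134.

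Strong list-specific regions lay over the starts of 38 genes in HSCs and 28 in HPCs, and 6 genes of each were called in the same cell type alone in adults. The printed starts come from these. Among 16 motifs searched on both strands, the GATA motif was the one whose intervals did not overlap, at 8.00% of HSC-only windows (interval 5.87 to 10.6) and 15.9% of HPC-only windows (interval 12.1 to 20.4). It stood in 9.69% of all windows, in 5.49% of those called in both lists and in 1250 of the 7563 called in neither (interval 15.7% to 17.4%), so the HPC-only share was close to that of uncalled windows, whose G+C content is lower. The RUNX motif was in 12.9% of HSC-only and 18.7% of HPC-only windows.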

How the data were processed

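ATAC-seq peak lists of HSCs and HPCs were used. Per the labels' protocols, DNA was tagmented with Tn5; per the submitters' processing notes, Bowtie2, MACS2 and mm10/GRCm38 were used, while the sources used here give no versions, filters or read depth. The authors pooled the libraries of each group into 1 deposited list with fold over background, -log10 p, -log10 q and a summit offset (another unit) per peak. These peak values are the authors' and served only to rank, filter and describe peaks. The score column was not used.

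Peaks were merged and compared with Python 3.11.15, pandas 2.3.3, NumPy 2.4.6 and SciPy 1.17.1, and figures were drawn with Matplotlib 3.10.9. The scripts were tested on simulated data. Gene ends came from a RefSeq gene table, promoter windows (300 bases) from RefSeq GRCm38.p6, found for 79.8% of protein-coding genes; motifs were searched in these windows alone. Of 328 list members in 17 lists, 323 matched. The named genes were those at the 15 strongest list-specific regions in each direction, the 8 with the largest difference in strong list-specific regions, up to 4 members of each gene list, and 41 fixed genes, with examples of regions kept to 1 cell type and V segments picked after their values were seen. Members and lists were chosen with earlier results of these data known. Alternatives varied overlap, merging, list length, threshold, strength limit and distances. Some named genes are not reported here.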

Additional observations from a re-analysis of the deposited data

Results flagged for a closer look

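Peaks on the Y chromosome lay outside the chromosomes compared. The fetal HSC list held 29 of them and the fetal HPC list 31. Their median -log10 p was 33.3 in HSCs and 38.7 in HPCs, and the highest was 293 in HSCs and 338 in HPCs. The sex of the embryos is not in the labels used here.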

How the results depend on the processing

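Other overlaps, merging, list lengths and a -log10 q of at least 2 left 19835 to 21909 HSC-specific and 18627 to 20607 HPC-specific regions, and 1341 to 1495 and 1956 to 2149 strong ones. When strong meant the upper 25%, 68 HSC-specific and 281 HPC-specific regions remained, a difference of -213. With strength taken from fold over background there were 2236 HSC-specific and 2660 HPC-specific strong regions, a difference of -424, and with 1 limit of -log10 p for both lists the difference was -127 (chosen after seeing the data). Within 5 kb of a gene end lay 15.9% of HSC-specific and 13.6% of HPC-specific strong regions. The adult share in the HSC list of HSC-specific regions was 100% in the upper 25% (27 regions) and 72.2% over all regions, and that of HPC-specific regions 28.4% over all regions. Counting strong regions alone, an alternative added after seeing the data, 14 Igh V segments were called in HSCs and 30 in HPCs. The cause of these shifts was not tested beyond the change in regions counted. The net share of strong list-specific regions favoured HSCs in 2 gene lists and HPCs in 11; over all regions it favoured HSCs in 13 and HPCs in 4, with 8 lists changing sign, and in the upper 25% it favoured HSCs in 0 and HPCs in 2. Leaving out single replicates was not possible. No paired analysis was possible because the libraries were pooled into 1 list per group. Read depth is unknown and limits what was called.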

Other observations

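Other antigen receptor loci showed smaller differences in count than the heavy chain locus, in both directions. Of 130 T cell receptor alpha V segments, 15 carried a region in fetal HSCs and 10 in fetal HPCs, with 8 called in HSCs alone and 3 in HPCs alone. Of 162 kappa light chain V segments, 9 were called in HSCs and 14 in HPCs (1 in HSCs alone, 6 in HPCs alone), and of 35 T cell receptor beta V segments 12 in HSCs and 15 in HPCs (1 and 4 alone). A run of 3 consecutive strong HSC-specific regions (chr14:53045389-53135257) was 1 of the 2 such runs in HSCs. These V segments were chosen after values were seen, and reads among near-identical members may be assigned uncertainly.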
